A study of Homo sapiens with 27 samples.

Results

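The late change in inhibitor-treated cells was taken as the difference between day 21 and day 14 of treatment with a FAK inhibitor. It rests on the 3 libraries labelled FAKi day 21 and the 3 labelled FAKi day 14, which are 6 of the 27 mRNA libraries of the series. These libraries were taken by their labels of treatment and day. The comparison and the gene lists below were chosen with earlier results of these data known. All libraries came from 92.1 cells, an established line of uveal melanoma that carries a mutation of *GNAQ*. The FAKi cultures received 100 nM VS-4718 from the start and the controls received DMSO, with medium and treatment replaced every 72 h in both arms. Cells were sampled at day 0 and then in both arms at days 3, 7, 14 and 21, in 9 groups of 3 libraries. A cell at FAKi day 21 had therefore been in the inhibitor a week longer than a cell at FAKi day 14, and had also been in culture a week longer. The DMSO libraries of the same days, which are not shared with the FAKi comparison, measured the change over that week without the inhibitor. The study's methods describe plating in triplicate as well as biological repeats of the whole experiment, and the labels do not say which of these the replicate numbers stand for. The p-values below thus measure the spread between these libraries.

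FAK, encoded by *PTK2*, is a tyrosine kinase of focal adhesions, where integrins couple the cell to its matrix. In uveal melanoma, mutant Gαq signals through TRIO to small GTPases, FAK and YAP, beside the route through PLCβ, protein kinase C and ERK. Cultured cells also respond to the state of their medium, for instance through the integrated stress response, in which phosphorylation of eIF2α raises translation of the transcription factor ATF4 and with it the genes of amino acid synthesis and transport.

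Total counts were between 25839235 and 33404647 in the FAKi day 14 libraries and between 17137554 and 30593307 at FAKi day 21. Over 22009 genes, libraries differed in log2 CPM (root mean square) by 0.595 to 0.684 within FAKi day 14, 0.495 to 0.542 within FAKi day 21 and 0.956 to 1.18 between both groups. FAKi day 7 replicate 1 was only 0.373 from the first replicate of FAKi day 14, while within groups of the series no 2 libraries were nearer than 0.398. The count differences of this pair gave a chi-square of 1.64 per degree of freedom, against 4.88 to 21.8 for replicate pairs of FAKi days 14 and 21, so the pair differed by more than counting noise but by less than replicates did. FAKi day 14 replicate 1 was 0.595 and 0.684 from the other libraries of its own group and 0.861 and 0.892 from FAKi day 7 replicates 2 and 3. Whether a label or sample of the close pair was exchanged was not tested. The day 7 library takes no part in the comparison of days 21 and 14, but its partner is 1 of the 3 day 14 libraries. Without that partner 4798 genes were called in place of 4731 for FAKi, and 1447 in place of 1922 for the difference between FAKi and DMSO. Among the controls, DMSO day 21 replicate 3 stood apart from the other two libraries of its group, with a summed level of cytosolic ribosomal protein genes of 95050 CPM against 194700 and 197300 CPM. Its column header can be read as day 7 or day 21, and its sample title gives day 21. Whether this library was mislabelled was not tested.

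The melanocytic identity of the cells was seen in all 6 libraries. Unscaled CPM (counts scaled to a common library total) were between 494 and 767 for *MLANA*, 4800 and 8910 for *PMEL*, 5330 and 6640 for *TYRP1*, 456 and 531 for *TYR* and 433 and 875 for *SOX10*. *COL3A1*, *DCN*, *THY1* and *FAP* of fibroblasts, *KRT5* of epithelium, *CDH5* and *KDR* of endothelium, and *CD3D*, *MS4A1* and *FCGR3A* of immune cells had 0 counts in each of the 6 libraries. The melanocytic marker list of 9 genes summed to 12440 to 12990 CPM at day 14 and 14990 to 15040 CPM at day 21. The sum follows its most abundant members. Of the 9 genes 0 were called higher and 2 lower, with a median log2 fold change of -0.05. *S100B* of this list was only between 0.31 and 0.739 unscaled CPM. The Schwann cell and neural crest list, in which *SOX10* was the most abundant, summed to 1077 to 1247 CPM and 645 to 733 CPM. The epithelial list went from between 926 and 992 CPM to between 1071 and 1423 CPM, most of it *BEST1*, which was between 909 and 1510 unscaled CPM. Its only called member was *KRT18* (5.35 ± 1.16 to 12.2 ± 1.49 CPM, mean ± SD, n = 3 here and for all means below). The 2 detected immune genes went from between 40.7 and 42.1 CPM to between 23.4 and 26.6 CPM, of which *CD68* was nearly all. The fibroblast list went from between 13.3 and 14.6 CPM to between 6.24 and 7.74 CPM, and the endothelial list was below 1 CPM throughout. *LUM*, a fibroblast proteoglycan gene, was the 1 called member of the fibroblast list (log2 fold change -1.66).

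*PTK2* (ENSG00000169398.19, hg38 chromosome 8, 140657900 to 141001233, minus strand), the gene of the inhibited kinase, was at 133, 128 and 136 CPM in the 3 libraries of FAKi day 14 and at 120.1, 126 and 141 CPM in those of FAKi day 21. The groups overlapped, and the log2 fold change was -0.03 with a standard error of 0.0942 (adjusted p = 0.798, quasi-likelihood F test of edgeR, adjusted by Benjamini-Hochberg). *GNAQ* (ENSG00000156052.11, chromosome 9, 77716097 to 78031811, minus strand), the mutant driver, was at 33.5, 39.5 and 46.8 CPM at day 14 and at 30.3, 25.6 and 27.8 CPM at day 21. Each day 21 library was below each day 14 library, with a log2 fold change of -0.51 ± 0.126 (standard error, adjusted p = 0.00202), short of the fold change that a call required. With each library corrected for transcript length and GC content, its log2 fold change was 0.06.

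Of 23432 genes tested, 4731 (20.2%) were called, meaning that the adjusted p did not exceed 0.05 and the log2 fold change was beyond 1 in either direction. Of these, 2706 (11.5% of those tested) were higher at day 21 and 2025 (8.64%) were lower. The libraries of both days did not overlap for 57.3% of all genes, with day 21 above for 29.5% and below for 27.8%, and 54.2% had an unadjusted p under 0.05. Of 14457 protein-coding genes 1116 were called higher and 1337 lower, a balance that turned to 1388 higher and 1119 lower when these genes alone were scaled and tested. Of 3504 pseudogenes 842 were higher and 296 lower. With upper quartile scaling 63.1% of calls over all genes were higher at day 21, against 57.2% with TMM scaling, and the median log2 fold change over all genes was 0.0901 against 0.0222.

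**Figure D1:**
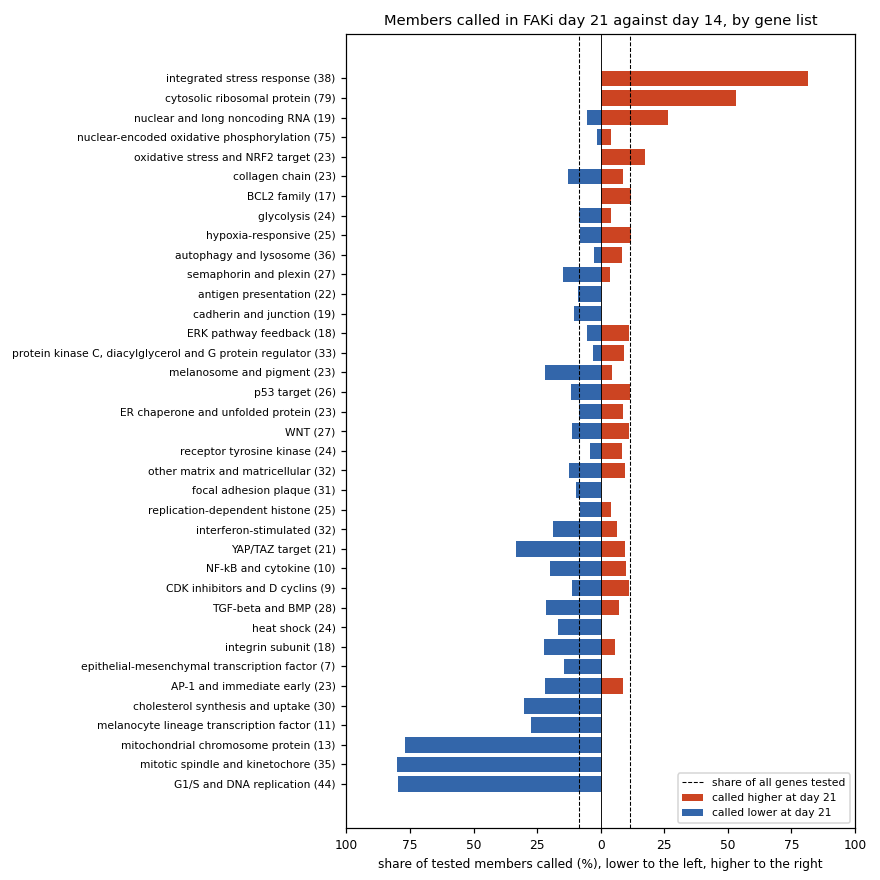
Number of called genes as a share of those tested in each gene list with at least 7 tested members, for FAKi day 21 against FAKi day 14, with genes higher at day 21 on 1 side and lower on the other and dashed lines at the share over all genes (11.5% and 8.64%). The integrated stress response list stands far above the line for higher genes (31 of 38), and the lists of DNA replication (35 of 44) and mitosis (28 of 35) far past the line for lower genes.

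The 10 genes with the highest log2 fold changes among called genes of at least 5 CPM on average were led by *GAS5-AS1* (4.47), an antisense RNA of the snoRNA host gene *GAS5*, and held *ASNS* (4.35), *TRIB3* (4.10), *GDF15* (4.06), *DDIT4* (3.58) and *CHAC1* (3.30), which are described below. The others were *MFSD2B* (3.57), a sphingosine-1-phosphate transporter gene, *MTRNR2L10* (3.33), which is near-identical to part of the mitochondrial rRNA gene and therefore uncertain, *LMNTD1* (3.32) and the transcription factor gene *NFATC4* (3.31). The 10 lowest were *FAM111B* (-3.63), *CLSPN* (-3.61), *NRGN* (-3.45), *APOBEC3B-AS1* (-3.42), *PI15* (-3.36), *MYBL1* (-3.20), *ESCO2* (-3.18), *PCDH7* (-3.12), *RRM2* (-3.12) and *USP34-DT* (-3.08). *CLSPN* encodes claspin of the replication checkpoint, *ESCO2* a cohesin acetyltransferase of S phase and *RRM2* a subunit of ribonucleotide reductase. *PCDH7* encodes a protocadherin and *NRGN* the calmodulin-binding protein neurogranin. *PCDH7* was at 69.5, 66.8 and 72.5 CPM at day 14 and at 8.08, 7.01 and 8.72 CPM at day 21, and *NRGN* at 18.9, 17.2 and 16.9 CPM and then at 1.59, 1.63 and 1.63 CPM. Of the named genes with annotated exons, 36 of 184 share over 10% of their exon bases with another gene, *GAS5-AS1* (16.2%), *APOBEC3B-AS1* (35.3%), *PCDH7* (18.3%) and *USP34-DT* (39.3%) among them on the opposite strand. The strand setting of the counting is not given in the sources used here, so reads of such partners cannot be told apart. Of genes named elsewhere, *CD68* (94.9%), *SRXN1* (90.7%), *RNF43* (76.5%) and *EBP* (57.1%) share exon bases with another gene on the same strand. On the opposite strand the same holds, among others, for *FDPS* (39.7%), *KRT18* (26.5%), *TUBA1C* (23.6%) and *CDKN2C* (21.25%).

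Genes of the integrated stress response were higher at day 21. Of the 40 genes in the list 38 were tested, and 31 of them were called higher and 0 lower, against 11.5% and 8.64% of all genes. The median log2 fold change was 1.84, and all day 21 libraries were above all day 14 libraries for 35 genes and below them for 2. Over all genes these shares were 29.5% above and 27.8% below. The called transcription factors were 6 of 7, from *ATF3* (1.52) to *DDIT3* (3.08), the gene of CHOP. *ATF4*, the central factor, was at 314, 306 and 296 CPM at day 14 and at 1319, 1253 and 1118 CPM at day 21 (log2 fold change 2.01 ± 0.0895). *DDIT3* was at 23.3, 20.3 and 21.7 CPM and then at 203, 191 and 159 CPM (3.08 ± 0.115), although 33.2% of its exon bases overlap a gene on the opposite strand.

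*ASNS* (ENSG00000070669.17, chromosome 7, 97852128 to 97872131, minus strand), which makes asparagine, was at 11.2, 12.4 and 14.9 CPM at day 14 and at 284, 256 and 242 CPM at day 21, so that no library of either day came near the other group. Its log2 fold change was 4.35 ± 0.123 (adjusted p = 2.23e-15). An unnamed long noncoding RNA gene shares 81.96% of its exon bases on the same strand and showed nearly the same values (12.96 to 261.5 CPM), so their reads could not be separated. Of the 8 tested genes of amino acid and one-carbon enzymes all were called higher, with log2 fold changes between 1.37 and 4.35. The aminoacyl-tRNA synthetases, which charge tRNAs, were called higher for 8 of 9, between 1.02 and 2.42.

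*TRIB3* (chromosome 20, 380760 to 397559, plus strand), a pseudokinase that ATF4 and CHOP induce, had the smallest p of all genes that rose. It was at 16.96, 16.4 and 17.4 CPM at day 14 and at 313, 297 and 264 CPM at day 21 (log2 fold change 4.10 ± 0.108, adjusted p = 1.76e-15). *DDIT4* (chromosome 10, 72273924 to 72276036, plus strand), an inhibitor of mTORC1, was at 11.8, 9.59 and 13.04 CPM and then at 139, 142 and 131 CPM (3.58 ± 0.121, adjusted p = 3.24e-14). *CHAC1*, which degrades glutathione, went from 9.04 ± 1.27 to 89.4 ± 1.97 CPM (3.30 ± 0.121), and *SESN2*, an amino acid sensor upstream of mTORC1, from 8.89 ± 1.45 to 53.9 ± 2.87 CPM (2.60 ± 0.131). These genes are feedback and growth inhibitors of the response, of which 4 of 5 were called. The member without a call was *PPP1R15A*, a phosphatase subunit that reverses the phosphorylation of eIF2α (0.69).

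The secreted products of the response were also higher. *GDF15*, a stress cytokine, rose from 0.623 ± 0.516 to 10.9 ± 0.708 CPM (log2 fold change 4.06 ± 0.323), and its fold rests on a low day 14 level, being 5.04 without FAKi day 14 replicate 1 and 3.42 with correction for length and GC content. *STC2*, a secreted glycoprotein, rose from 8.55 ± 0.860 to 41.3 ± 0.874 CPM (2.27 ± 0.125). Among the transcription factors, *NUPR1*, a small stress-induced nuclear protein, rose from 37.5 ± 2.04 to 282 ± 31.9 CPM (2.91 ± 0.107). Only 2 of 5 amino acid transporters were called, and the higher of them was *SLC7A11*, the cystine and glutamate antiporter, at 4.91, 5.50 and 6.30 CPM at day 14 and at 45.0, 43.4 and 52.1 CPM at day 21 (3.08 ± 0.137). Besides *PPP1R15A*, the tested genes without a call were *SLC7A5* (0.91), *SLC7A1* (0.76), *SLC6A9* (0.37), *NARS1* (0.28), *VLDLR* (-0.31) and *ATF5* (-0.63). The list's calls at day 21 lay between 29 and 35 higher over all 26 settings, and were 31 without FAKi day 14 replicate 1.

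**Figure D2:**
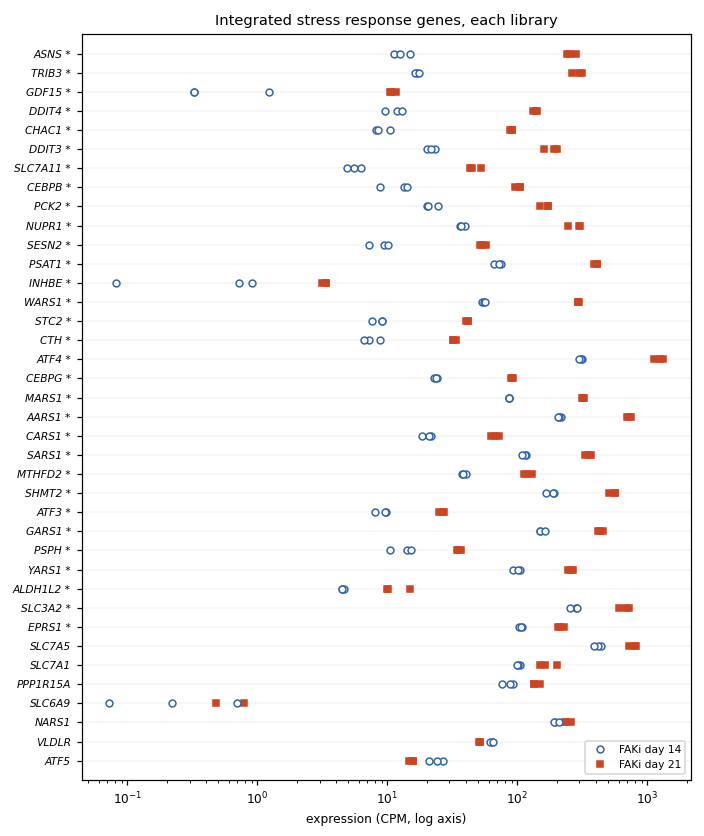
CPM (log axis) of each integrated stress response gene in the 3 FAKi day 14 libraries (circles) and the 3 FAKi day 21 libraries (squares), with an asterisk at called genes. For 35 genes every square lies to the right of every circle, with *ASNS*, *TRIB3* and *GDF15* the most widely separated, and a library at 0 CPM, as 1 of *SLC6A9*, is not drawn.

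The promoters of *ASNS* and *CHAC1* are shown because they hold a sequence known to bind C/EBP and ATF factors together, TGATGNAA (read on both strands). They are the 250 bases before the RefSeq gene start on GRCh38.p14, chr7:97872409-97872658 (minus strand) and chr15:40953221-40953470 (plus strand), with the match in capitals, which starts 68 bases before the start in *ASNS* and 209 in *CHAC1*.
ASNS: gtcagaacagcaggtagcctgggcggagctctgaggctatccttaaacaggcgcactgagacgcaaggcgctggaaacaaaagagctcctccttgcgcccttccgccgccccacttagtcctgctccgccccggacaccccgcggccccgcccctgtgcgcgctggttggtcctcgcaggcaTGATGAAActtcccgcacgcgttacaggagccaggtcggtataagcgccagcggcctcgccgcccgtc
CHAC1: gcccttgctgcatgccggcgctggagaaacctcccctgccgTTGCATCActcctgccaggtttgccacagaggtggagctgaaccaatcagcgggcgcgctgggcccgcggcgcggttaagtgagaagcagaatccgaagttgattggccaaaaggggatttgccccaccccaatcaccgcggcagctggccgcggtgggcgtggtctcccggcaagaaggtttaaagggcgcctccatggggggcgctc
Of the 31 called genes, 24 had a promoter in the RefSeq table and 4 of these 24 (16.7%) held the motif. It was in 3.19% of 27305 promoters of the same length and in 1.44% of the 12338 promoters of tested genes. The other 2 called genes with the motif were *AARS1* and *ATF3*. A match is a description of the letters and not of a factor at that place.

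Genes of DNA replication were lower at day 21. Of 44 genes of G1/S and DNA replication, all of which were tested, 35 were called lower and 0 higher, with a median log2 fold change of -1.59, against 8.64% of all genes called lower. Each of the 44 but *RPA3* (0.32), a subunit of the single-strand binding protein RPA, had day 21 libraries below all day 14 libraries. The same held for 27.8% of all genes. The helicase subunits *MCM2* to *MCM7*, which unwind the template, were all called, between -1.01 and -2.46. *MCM4* was at 406, 390 and 407 CPM at day 14 and at 72.8, 67.1 and 77.8 CPM at day 21 (log2 fold change -2.46 ± 0.0947). Of the genes that recognise, load and activate origins 9 of 10 were called, the exception being the licensing factor gene *CDT1* (-0.84). *CDC45*, the helicase activator, went from 58.6 ± 2.82 to 11.3 ± 1.05 CPM (-2.38 ± 0.118).

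The 5 genes of deoxynucleotide supply were all called lower. *RRM2* was at 96.2, 96.9 and 112 CPM at day 14 and at 12.4, 10.5 and 12.2 CPM at day 21, well apart in every library (log2 fold change -3.12 ± 0.117, adjusted p = 9.47e-14). *TYMS*, thymidylate synthase, fell from 152 ± 5.44 to 35.8 ± 0.429 CPM (-2.09 ± 0.0963). A gene on the opposite strand overlaps 66.5% of the exon bases of *TYMS*. Among polymerases, the sliding clamp, its loader and the ligase 11 of 16 were called, and *PCNA*, the clamp, was at 282, 260.3 and 272 CPM and then at 61.1, 50.4 and 48.0 CPM (-2.35 ± 0.105). *E2F1*, which drives transcription of many of these genes, fell from 55.7 ± 9.56 to 13.2 ± 2.13 CPM (-2.08 ± 0.144), while the cyclin E genes *CCNE1* (-0.96) and *CCNE2* (-0.94) had no call.

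Genes of the mitotic spindle and kinetochore were lower as well, with 28 of 35 called lower, 0 higher and a median of -1.57, against 8.64% of all genes called lower. All 35 had day 21 libraries below all day 14 libraries, against 27.8% of all genes. *ANLN*, anillin of the cytokinetic ring, was at 81.9, 76.8 and 94.1 CPM at day 14 and at 11.1, 11.2 and 14.8 CPM at day 21 (-2.76 ± 0.131). *MKI67*, the gene of the proliferation antigen Ki-67, was at 216, 211 and 219 CPM and then at 34.2, 41.2 and 48.0 CPM (-2.38 ± 0.114). *TOP2A*, topoisomerase IIα, fell from 327 ± 5.35 to 86.4 ± 13.7 CPM (-1.92 ± 0.107) and *CENPF* of the kinetochore from 268.5 ± 3.61 to 75 ± 10.1 CPM (-1.84 ± 0.103). *NUSAP1* and *PRC1*, of the spindle, were also called (-2.22 and -1.73), but share 99.2% and 88.4% of their exon bases with another gene on the same strand. The smallest differences were those of *CCNB1*, cyclin B1 (66.5 ± 7.58 to 43.3 ± 2.57 CPM, -0.62), and *CDC20*, the activator of the anaphase-promoting complex (33.2 ± 1.39 to 28.6 ± 2.75 CPM, -0.22, adjusted p = 0.120).

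*TUBA1C* (chromosome 12, 49265082 to 49274600, plus strand), an α-tubulin gene in neither list, had with *MT-ATP8* the smallest adjusted p of the genes that fell. It was at 998, 997 and 1046 CPM at day 14 and at 171, 168 and 151 CPM at day 21 (log2 fold change -2.63 ± 0.0904, adjusted p = 3.35e-14). Of the CDK inhibitor and D cyclin list 1 of 9 tested genes was called in each direction. *CDKN1C*, the inhibitor p57, rose from 2.25 ± 0.479 to 10.8 ± 1.89 CPM (2.25), and *CDKN2C*, the inhibitor p18, fell from 30.5 ± 5.06 to 7.79 ± 0.167 CPM (-1.97). Of 25 tested replication-dependent histone genes 1 was called higher (*H4C14*, 1.59) and 2 lower, *H2BC5* (-1.16) and *H2BC4* (-2.35), of which *H2BC4* was below 1 CPM in all 6 libraries. Of 26 genes known as targets of p53, 3 were called higher, namely *GDF15*, *SESN2* and *BBC3* (1.46), and 3 lower, namely *DDB2* (-1.66), *FAS* (-1.59) and *TP53INP1* (-1.20). The counts of the CDK, histone and p53 lists stand beside 11.5% of all genes called higher and 8.64% called lower.

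**Figure D3:**
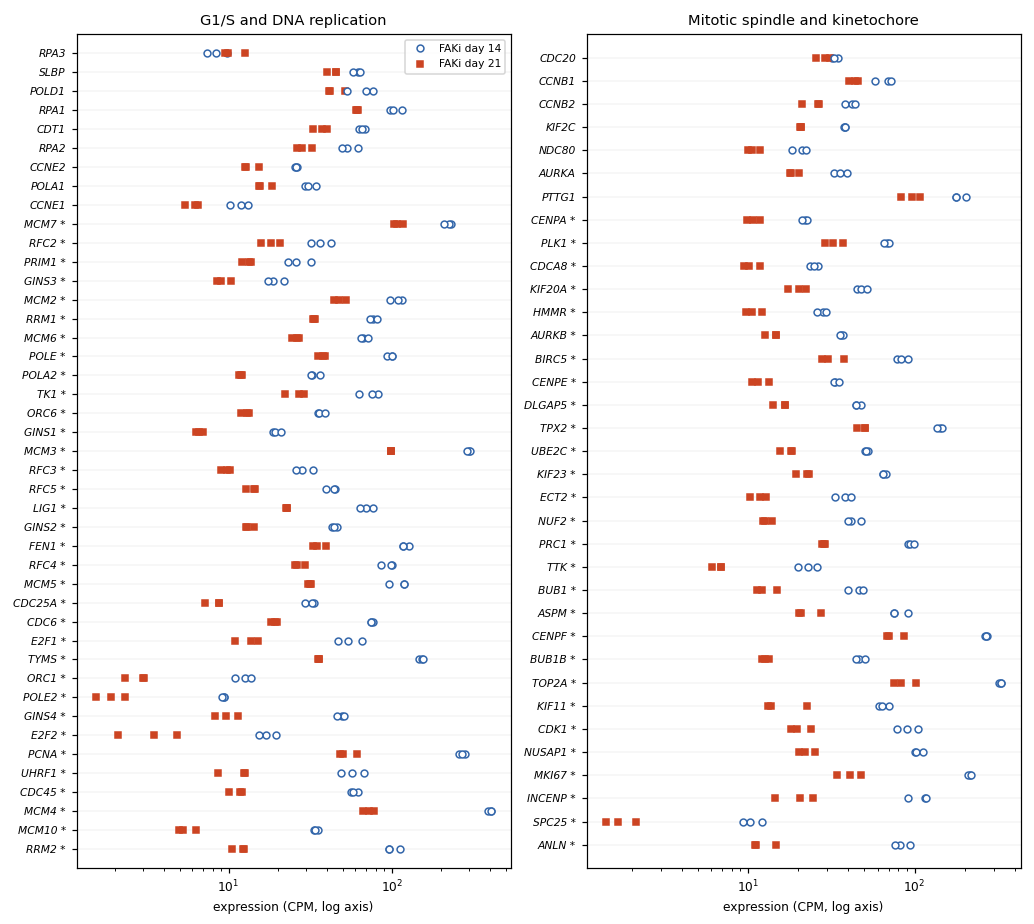
CPM (log axis) of genes of DNA replication and of mitosis in the 3 FAKi day 14 libraries (circles) and the 3 FAKi day 21 libraries (squares), with an asterisk at called genes. Squares lie to the left of circles for every drawn gene apart from *RPA3*, and 1 tested replication gene is not drawn.

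Promoters are shown for *PCNA* and *TYMS*, which hold an E2F sequence (TTTGGCGC or TTTCCCGC, both strands), and for *ANLN* and *MKI67*, which hold the CHR sequence of mitotic genes (TTTGAA, both strands). They are again the 250 bases before the RefSeq start on GRCh38.p14, at chr20:5126623-5126872 (minus strand), chr18:657403-657652 (plus), chr7:36389612-36389861 (plus) and chr10:128126424-128126673 (minus), with matches in capitals. The match began 59 bases before the start in *PCNA*, 39 in *TYMS*, 47 and 29 in *MKI67*, and 26 and 20 in *ANLN*, where both adjoin on opposite strands.
PCNA: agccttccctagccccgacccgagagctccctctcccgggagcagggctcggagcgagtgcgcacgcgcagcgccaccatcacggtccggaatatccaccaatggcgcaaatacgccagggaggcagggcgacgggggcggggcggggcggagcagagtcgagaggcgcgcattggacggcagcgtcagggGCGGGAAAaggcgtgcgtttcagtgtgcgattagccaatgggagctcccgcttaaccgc
TYMS: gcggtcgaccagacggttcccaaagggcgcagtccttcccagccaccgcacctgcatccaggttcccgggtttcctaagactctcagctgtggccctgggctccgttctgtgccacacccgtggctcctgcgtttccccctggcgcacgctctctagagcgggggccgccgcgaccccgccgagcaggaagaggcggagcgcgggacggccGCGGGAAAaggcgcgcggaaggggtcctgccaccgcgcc
ANLN: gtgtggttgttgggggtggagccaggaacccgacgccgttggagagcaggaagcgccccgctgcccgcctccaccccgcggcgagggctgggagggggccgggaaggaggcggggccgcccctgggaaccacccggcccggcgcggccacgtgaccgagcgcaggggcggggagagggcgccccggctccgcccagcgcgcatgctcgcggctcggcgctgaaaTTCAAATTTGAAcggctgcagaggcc
MKI67: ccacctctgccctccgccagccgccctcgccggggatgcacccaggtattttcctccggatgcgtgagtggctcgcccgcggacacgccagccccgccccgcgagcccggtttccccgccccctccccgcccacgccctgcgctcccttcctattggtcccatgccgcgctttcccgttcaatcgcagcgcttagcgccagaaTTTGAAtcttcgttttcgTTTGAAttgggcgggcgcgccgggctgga
An E2F sequence was found in 13 of 31 called replication genes with a promoter in the table (41.9%). It was in 1.96% of 27305 promoters and in 3.01% of the 12338 promoters of tested genes. CHR was found in 17 of 24 called mitotic genes (70.8%), against 13.6% of all promoters and 8.78% of those of tested genes. These shares describe letters in a window of 250 bases, in a list whose members are partly known from such sequences.

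The same week in DMSO was compared to see which of these differences were also found in cells without the inhibitor. There 6314 of 23575 genes (26.8%) were called between days 14 and 21, 3395 higher (14.4%) and 2919 lower (12.4%), and 49.6% had an unadjusted p under 0.05. Among 22490 genes tested in both arms, 1560 of the 2653 called higher in FAKi (58.8%) were also called higher in DMSO, which is 47.1% of 3314. Of the 1976 called lower in FAKi 1099 (55.6%) were called lower in DMSO, which is 38% of 2892. Calls in opposite directions were few, 19 genes higher in FAKi and lower in DMSO and 12 the reverse. A change present in both arms is that of culture time or of the day's libraries, which cannot be told apart.

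The difference of both changes, tested as an interaction term over 12 libraries, was called for 1922 of 25869 genes (7.43%), 915 with a higher change in FAKi (3.54%) and 1007 with a lower one (3.89%). With upper quartile scaling 57.5% of these calls were higher, against 47.6%. The count was 3812 without DMSO day 21 replicate 3 and 1138 without FAKi day 21 replicate 3. Of the genes called higher in FAKi 188 (7.09%) had a called difference in the same direction, and of those called lower 238 (12%). A further 96 called higher and 59 called lower had a called difference in the opposite direction, their change being greater in DMSO.

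The integrated stress response genes were among those with a greater rise in FAKi, with a called difference for 25 of 40 higher and 1 lower (*VLDLR*, a lipoprotein receptor, -1.31), against 3.54% and 3.89% of all genes. In DMSO 14 of the 40 were called higher and 1 lower, with a median of 0.72. *ASNS* was at 159, 144.5 and 162 CPM at DMSO day 14 and at 520.0, 514 and 489 CPM at DMSO day 21, and its change in FAKi exceeded that in DMSO by 2.64 ± 0.179 on the log2 scale (adjusted p = 1.06e-06). Its level thus rose in both arms from a much lower value in FAKi. *SLC7A11* was at 44.1, 61.8 and 65.4 CPM at DMSO day 14 and at 45.9, 49.9 and 68.01 CPM at DMSO day 21, with overlapping groups, and its difference was 3.15 ± 0.253 (adjusted p = 8.08e-06). For *GDF15* the changes were 4.06 in FAKi and 3.97 in DMSO (difference 0.10 ± 0.453, adjusted p = 0.917).

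*TXNIP* (ENSG00000265972.6, chromosome 1, 145992435 to 145996579, minus strand), which binds thioredoxin and limits glucose uptake, moved in opposite directions in both arms. It was at 11.4, 14.5 and 13 CPM at FAKi day 14 and at 45.5, 44.2 and 45.9 CPM at FAKi day 21 (log2 fold change 1.80 ± 0.121). In DMSO it was at 40.8, 46.0 and 43.9 CPM and then at 18.9, 12.8 and 11.9 CPM (-1.57 ± 0.200), so that the groups did not overlap in either arm and the difference was 3.38 ± 0.233 (adjusted p = 1.06e-06). *VEGFA*, the angiogenic growth factor, rose in FAKi as well, at 38.9, 33.1 and 37.9 CPM and then at 146, 159 and 175 CPM (2.13 ± 0.107), while in DMSO it went from 101.4 ± 2.03 to 76.1 ± 19.8 CPM (-0.41, adjusted p = 0.107). Its difference was 2.55 ± 0.221. In the hypoxia-responsive list, 3 of 25 tested genes were called higher in FAKi (*VEGFA*, *DDIT4* and *STC2*) and 2 lower (*BHLHE40*, -1.05, and *ERO1A*, -1.06), and neither of these 2 kept its call in every setting. Over all genes in FAKi 11.5% were called higher and 8.64% lower.

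Replication genes fell further in FAKi than in DMSO. The difference was called lower for 30 of 44 and higher for 0, and in DMSO 9 were called lower and 1 higher (*RPA3*) with a median of -0.39. *TYMS* went from 73.8 ± 11.3 to 60.8 ± 11.6 CPM in DMSO (-0.28, adjusted p = 0.264) and its difference was -1.80 ± 0.206. For mitotic genes the difference was called lower for 15 of 35. In DMSO 13 were called lower and 2 higher, but 4 lower and 0 higher with correction for length and GC content. Without that correction *MKI67* (-2.05), *ANLN* (-2.08) and *CENPF* (-1.91) fell in DMSO too and had no called difference. *CCNB1* (1.00) and *CDC20* (1.42) were the 2 that rose in DMSO, with differences of -1.62 and -1.63.

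**Figure D4:**
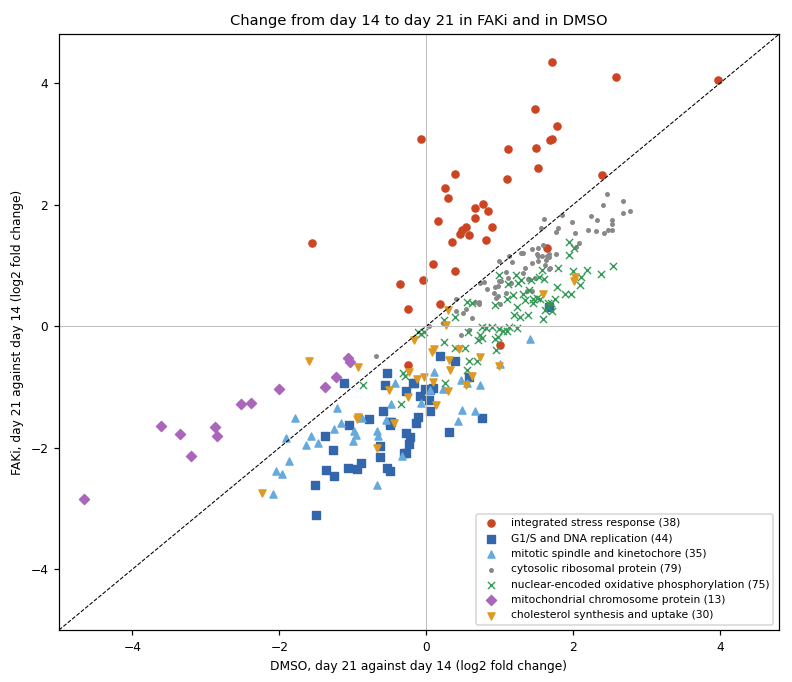
Log2 fold change from day 14 to day 21 in DMSO (horizontal) and in FAKi (vertical) for the genes of 7 lists, 1 symbol per list, with the line of equal change. Integrated stress response genes lie mostly above the line and replication genes mostly below it, while ribosomal protein genes lie mostly on the side of increase in both arms.

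Genes of cytosolic ribosomal proteins were higher at day 21 in both arms. In FAKi 42 of 79 were called higher and 0 lower, against 11.5% and 8.64% of all genes, with a median log2 fold change of 1.06. In DMSO 56 of 79 were called higher with a median of 1.43, and no difference between both arms was called, although without DMSO day 21 replicate 3 there were 13 lower. *RPS18* was at 229, 220.4 and 248 CPM at FAKi day 14 and at 1169, 1085 and 893 CPM at FAKi day 21 (log2 fold change 2.17 ± 0.103). *RPL3* went from 1471 ± 37.9 to 4516 ± 467 CPM (1.62 ± 0.0862) and *RPL10A* from 400.0 ± 18.3 to 1355 ± 170.0 CPM (1.76 ± 0.0968). FAKi day 21 replicate 3 was the lowest of its group for all 3 genes and still above every day 14 library. Pseudogenes named after ribosomal proteins were called in the same direction, 202 higher and 6 lower of 415, and reads of parents and copies cannot be told apart where the sequences are alike.

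The 5 called long noncoding RNAs that rose were *GAS5* (1.96), *SNHG5* (1.87), *SNHG8* (2.07), *ZFAS1* (1.63) and *EPB41L4A-AS1* (1.24), of 19 tested in a list of nuclear and long noncoding RNAs. The first 4 are host transcripts of snoRNAs. The 5 stand beside 11.5% of all genes called higher. Other genes share 38.6% of the exon bases of *SNHG5* on the same strand and 35.1% of those of *ZFAS1*. On the opposite strand they overlap 40.3% of *SNHG8*, 23.2% of *ZFAS1* and 62.7% of *EPB41L4A-AS1*. *GAS5* was at 262, 272 and 295 CPM at day 14 and at 1236, 1069 and 910 CPM at day 21. *H19*, an imprinted RNA, was the only one called lower (1.84 ± 0.194 to 0.279 ± 0.0849 CPM).

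Transcript length moved with the day. Over 6 bins of protein-coding genes, the median log2 fold change in FAKi fell from 0.35 in the shortest (up to 1736 bases) to -0.43 in the longest (from 6321 bases), and in DMSO from 0.79 to -0.66. The ribosomal protein transcripts have a median length of 1190 bases, and 51 of 79 lay in the shortest bin. With each library corrected for length, 30 were called higher with a median of 0.76, and with length and GC content 32 with a median of 0.73. The integrated stress response had 33 and 31 genes called higher in these 2 fits, with 0 and 1 lower, and the replication list had 36 and 38 lower.

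Transcripts of the mitochondrial chromosome were lower at day 21. Of its 13 protein genes 10 were called lower in FAKi, against 8.64% of all genes, with a median of -1.28. The remaining 3 were below day 14 without passing the fold change. *MT-ATP8*, a subunit of ATP synthase, was at 7036, 7743 and 6998 CPM at day 14 and at 880.4, 994 and 1152 CPM at day 21 (log2 fold change -2.85 ± 0.0972, adjusted p = 3.35e-14), although 22.2% of its bases are shared with *MT-ATP6*. *MT-ND6*, the complex I gene, fell from 7673 ± 530 to 1748 ± 170 CPM (-2.13 ± 0.0881). All genes of this chromosome took 21.5 ± 0.704% of counts at day 14 and 10.9 ± 0.281% at day 21, a difference of -10.6 points. The p of an exact two-sided permutation test was 0.1, the smallest that 3 libraries against 3 allow. In DMSO all 13 genes were called lower with a median of -2.53, and the difference between both arms was called higher for 6 (3 without FAKi day 14 replicate 1 or FAKi day 21 replicate 3, and 9 without DMSO day 21 replicate 3).

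The nuclear genes of oxidative phosphorylation changed less in FAKi. Of 75 genes 3 were called higher, *ATP5MC2* (1.39), *COX7C* (1.28) and *COX5A* (1.16), and 1 lower, *ATP5MF* (-1.27), below the shares over all genes. *COX7C* and *COX5A* had no call after the length correction, and *ATP5MF* shares 32.0% of its bases with another gene. The count of higher genes was 5 without FAKi day 14 replicate 1 and 8 without FAKi day 21 replicate 3, and the length correction gave 1 higher and 6 lower. In DMSO 44 of the 75 were called higher with a median of 1.19 against 0.32 in FAKi. The difference was called lower for 28, but for 6 to 50 over the settings, with 16 without FAKi day 14 replicate 1, 12 without FAKi day 21 replicate 3 and 49 without DMSO day 21 replicate 3.

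Genes of cholesterol synthesis and uptake were lower in FAKi. Of 30 tested 9 were called lower and 0 higher, with a median of -0.74, while in DMSO 2 were called lower and 3 higher with a median of 0.09. Over all genes in FAKi 8.64% were called lower and 11.5% higher. *HMGCS1* (chromosome 5, 43287470 to 43313412, minus strand), which makes HMG-CoA, was at 371, 378 and 396 CPM at day 14 and at 53.7, 54.1 and 63.3 CPM at day 21 (log2 fold change -2.74 ± 0.0994, adjusted p = 7.72e-14), and 46.7% of its exon bases overlap a gene on the opposite strand. *IDI1*, the isopentenyl diphosphate isomerase, fell from 210.3 ± 11.2 to 52.6 ± 3.87 CPM (-2.00). *SC5D* (-1.49), *EBP* (-1.30) and *FDPS* (-1.07), enzymes of the same route, were called too, *FDPS* not without FAKi day 21 replicate 3 (-0.99). The difference from DMSO was called lower for 12 of 30, among them *IDI1* (-1.32), but not for *HMGCS1* (-0.50), which fell in DMSO by 2.24 on the log2 scale.

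In the list of endoplasmic reticulum chaperones and unfolded protein genes 2 of 23 were called higher and 2 lower. These and the list counts that follow are to be read against 11.5% of all genes called higher and 8.64% called lower. *XBP1*, a transcription factor of that response, rose from 45.4 ± 2.40 to 168 ± 8.75 CPM (log2 fold change 1.89 ± 0.0973) and *HERPUD1*, of protein degradation at the reticulum, from 57.7 ± 2.11 to 147 ± 5.41 CPM (1.35). *CALR*, the chaperone calreticulin, was at 1668, 1581 and 1507 CPM at day 14 and at 451, 434.5 and 391 CPM at day 21 (-1.90 ± 0.0881), and *MANF*, a secreted protein of the reticulum, fell from 81.3 ± 4.26 to 24.0 ± 3.64 CPM (-1.77). Both had a called difference from DMSO (-1.43 and -1.47). Of 24 heat shock genes 4 were called lower and 0 higher, *CHORDC1* (-1.58), *HSPA1B* (-1.30), *DNAJB4* (-1.25) and *HSPA4L* (-1.25), of which *HSPA1B* has a near-identical copy. Of 24 glycolysis genes the lactate transporter gene *SLC16A3* was called higher (1.45) and *PKM*, pyruvate kinase (674 ± 11.5 to 291 ± 18.4 CPM, -1.21), and *PGAM1*, phosphoglycerate mutase (-1.11), lower, both with a called difference from DMSO (-1.27 and -1.48). Besides *SLC7A11*, the NRF2 targets *FTL* (1.09), *OSGIN1* (1.14) and *SRXN1* (1.11) were called higher and 0 lower of 23 tested, and all 3 lost the call with the correction for length and GC content.

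Genes around the inhibited kinase, in lists of adhesion and its targets, are given beside the 11.5% of all genes called higher and 8.64% called lower. Of 18 tested integrin subunits 1 was called higher, *ITGA7* (1.079), and 4 lower. *ITGB1*, the β1 chain shared by many fibronectin, collagen and laminin receptors, was at 381, 381 and 412 CPM at day 14 and at 111, 119 and 167 CPM at day 21 (log2 fold change -1.57 ± 0.123). *ITGAV* (-1.34), *ITGA1* (-1.60) and *ITGA6* (-1.04) were the others. *ITGA6* lost its call in 9 of 25 settings, among them those without FAKi replicate 2 of either day. The integrin list had 1 to 7 genes called lower over the 26 settings. *ITGB1* fell in DMSO too (-1.88), and its difference of 0.32 was not called (adjusted p = 0.698). The focal adhesion plaque list held 3 called genes of 31, all lower and near the threshold, the adaptor genes *LIMS1* (-1.02) and *NEDD9* (-1.02) and the kinase gene *YES1* (-1.04). None of these 3 was called with upper quartile scaling.

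Of 23 tested collagen chains *COL5A2* (1.91) and *COL16A1* (1.42) were called higher and *COL9A1* (-2.72), *COL19A1* (-1.97) and *COL15A1* (-1.36) lower. Among 32 other matrix genes 3 were called higher and 4 lower. Both lists are to be read against 11.5% of all genes called higher and 8.64% called lower. *FBLN1*, fibulin 1, was at 127, 127 and 115 CPM and then at 43.1, 43.3 and 36.9 CPM (-1.59 ± 0.103, difference from DMSO -1.76). *BGN*, biglycan, rose from 14.2 ± 1.44 to 36.8 ± 2.35 CPM (1.37), *FBLN2* by 1.27 on the log2 scale, and *LAMA3* (-2.05) and *LUM* (-1.66) fell. *TNC*, tenascin C, the other gene called higher, had 0 counts in the 3 day 14 libraries and 0.499, 0.617 and 0.121 CPM at day 21. It thus passed the count filter only through the day 21 libraries, which fixed its direction in advance.

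Of 21 tested YAP and TAZ targets, against the same 11.5% and 8.64% of all genes, 2 were called higher, *AJUBA* (1.33) and *FJX1* (1.15), and 7 lower, among them *ASAP1* (289 ± 20.5 to 103 ± 25.2 CPM, -1.49), *AMOTL1* (-1.11), *FOXF2* (-1.04) and *RBMS3* (-1.40). Over the 26 settings the FAKi calls were 1 to 3 higher and 3 to 9 lower. In DMSO 3 were higher and 2 lower, with a median log2 fold change of -0.55 against -0.32 in FAKi. The difference between both arms was called lower for 3 of 21 and higher for 0, against 3.89% and 3.54% of all genes. In the list of AP-1 and immediate early genes 2 of 23 were called higher and 5 lower, or 3 and 4 without FAKi day 14 replicate 1. *EGR1* was at 23.6, 13.6 and 21.2 CPM at day 14 and at 3.41, 6.23 and 3.74 CPM at day 21 (log2 fold change -2.15 ± 0.222), and *FOS* at 10.3, 10.1 and 9.63 CPM and then at 3.72, 3.59 and 4.71 CPM (-1.31 ± 0.180). *EGR3* (-2.24) and *NR4A2* (-1.60) were lower, and *JUND* (1.35) and *ATF3* (1.52) higher. In DMSO *EGR1* went from 3.25 ± 0.455 to 5.65 ± 3.10 CPM, and the difference was called for *EGR1* (-2.93), *EGR3* (-2.79) and *FOS* (-1.69). Of 18 feedback genes of the ERK pathway *ETV4* (1.47) and *SPRY1* (1.25) were called higher and *EPHA4* lower (-1.18). In the list of protein kinase C, diacylglycerol and G protein regulators *RGS16* (1.87 ± 0.1096 to 8.09 ± 0.550 CPM, 2.11), *RGS10* (1.12) and *RASGRP2* (0.724 CPM at most) were called higher and *ARF6* (-1.10), the GTPase, lower, of 33 tested.

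Semaphorins and plexins, guidance ligands and their receptors, had 1 gene called higher and 4 lower of 27 tested, with a median of 0.05. With correction for length and GC content 0 were called higher and 2 lower. Over all genes 11.5% were called higher and 8.64% lower. *SEMA3C*, secreted, was at 16.4, 15.1 and 16.6 CPM at day 14 and at 2.73, 2.36 and 4.35 CPM at day 21 (log2 fold change -2.31 ± 0.198). *SEMA5A*, transmembrane, was at 6.69, 8.10 and 8.86 CPM and then at 1.41, 1.46 and 2.02 CPM (-2.24 ± 0.229), whereas it rose in DMSO from 3.95 ± 0.487 to 8.01 ± 2.31 CPM, a difference of -3.26 ± 0.350 (adjusted p = 5.46e-05). *SEMA3A* (-1.89) was near 1 CPM and lost its call without FAKi replicate 1 of either day. *SEMA6A*, the most abundant at 1067 ± 25.5 and 525 ± 59.5 CPM, was just past the threshold (-1.02) and below it in 8 settings, among them without FAKi day 21 replicate 1 (-0.96) or 2 (-0.98). *SEMA6B* rose from 1.84 ± 0.665 to 4.71 ± 1.17 CPM (1.34). The difference from DMSO was called higher for *PLXNC1* (1.65) and *SEMA6D* (1.27), which fell less in FAKi than in DMSO, and lower for *SEMA5A*, *SEMA3A* (-3.10), *PLXNA2* (-1.61) and *PLXND1* (-1.14).

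Melanocyte genes moved in part. Of 11 tested lineage transcription factors 3 were called lower and 0 higher, with a median of -0.86 in FAKi and -1.07 in DMSO. This count and that of pigment genes stand beside 8.64% of all genes called lower and 11.5% called higher. *MITF*, the master regulator, was at 242.5, 253 and 260 CPM at day 14 and at 133, 133 and 141 CPM at day 21 (log2 fold change -0.89 ± 0.0885), short of a call. *TFAP2A* (585 ± 61.8 to 285 ± 27.5 CPM, -1.04), *IRF4* (-1.16) and *SOX9* (-1.22) were called, and each of the 3 lost its call without at least 1 of the day 14 libraries. Of 23 melanosome and pigment genes 5 were called lower. *SLC24A5*, a melanosomal ion exchanger, was at 213, 219 and 244 CPM and then at 84.5, 81.5 and 99.9 CPM (-1.34 ± 0.102), but 71.05% of its exon bases overlap a gene on the opposite strand. *RAB27A*, which moves melanosomes to the membrane, fell from 57.1 ± 7.39 to 18.8 ± 1.38 CPM (-1.60), *DCT* from 25.2 ± 3.06 to 8.77 ± 1.80 CPM (-1.505), *EDNRB* by 1.29 and *ATP7A* by 1.43 on the log2 scale. *CAPG*, at about 1 to 2 CPM, was the 1 called higher (1.14). *S100A1*, of the marker list, was called lower (-1.07).

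The remaining lists are given by their counts, to be read against 11.5% of all genes called higher and 8.64% called lower. Of TGF-β and BMP genes 2 of 28 were called higher, *INHBE* (2.49) and *BMP6* (1.70), and 6 lower, among them *NOG* (-4.11), *ID4* (-1.57), *TGFBR3* (-1.20) and *SKIL* (-1.03). *NOG*, the BMP antagonist noggin, was at 6.31, 4.38 and 4.71 CPM at day 14 and at 0.499, 0.281 and 0.151 CPM at day 21, and below 1 CPM in all DMSO libraries of both days. Of 27 WNT genes *FZD9* (1.77), *WNT11* (1.62) and *FZD2* (1.11) were higher and *LGR4* (-1.83), *RNF43* (-1.30) and *LRP6* (-1.24) lower. Of 24 receptor tyrosine kinases *FGFR4* (1.04) was among those called higher, and *NTRK2* (8.10 ± 1.01 to 1.504 ± 0.465 CPM, -2.38) was lower. Of 32 interferon-stimulated genes 2 were higher, *ISG15* (1.23) among them, and 6 lower, among them *SAMD9* (-1.86), *OAS3* (-1.54), *IFIT3* (-1.31), *EIF2AK2* (-1.27) and *DTX3L* (-1.18).

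*B2M*, the light chain of MHC class I, was at 443, 441 and 496 CPM at day 14 and at 210, 192 and 178 CPM at day 21 (-1.25 ± 0.0937), and with *PSMB9* (-1.74) it was called lower of 22 antigen presentation genes, with 0 higher. Of 10 tested NF-κB and cytokine genes *RELB* (1.15) was higher and *NFKBIA* (-1.10) and *TNFAIP3* (-1.06) lower. *BBC3* and *BOK* (1.20) of 17 BCL2 family genes were higher. Of 36 autophagy and lysosome genes *TFEB* (1.52), *MAP1LC3A* (1.35) and *ATG9B* (1.27) were higher and *FNIP2* (-1.46) lower. *NCAM1* (-1.25), 1 of the called genes among 19 junction genes, and *SNAI2* (267 ± 12.7 to 117 ± 2.08 CPM, -1.20) of 7 epithelial-mesenchymal transcription factors were lower. *SNAI2* fell less than in DMSO (difference 1.12, adjusted p = 0.000364).

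The other days place both groups in the time course, on a scale common to all 27 libraries. The summed level of the 40 integrated stress response genes was 8951 to 9392 CPM in DMSO at day 0 and 9370 to 9719 CPM at FAKi day 3. At FAKi day 14 it was 2650 to 2783 CPM, below every other group apart from FAKi day 7 replicate 1 (2758 CPM), and at FAKi day 21 it was 8130 to 8602 CPM. DMSO passed from 6230 to 6565 CPM at day 14 to 10330 to 11090 CPM at day 21. The summed level of the 44 replication genes was 1206 to 1233 CPM at day 0, 3354 to 3505 CPM at FAKi day 14 and 1084 to 1121 CPM at FAKi day 21. In DMSO it was 2047 to 2195 CPM and then 1343 to 1760 CPM. As groups, the FAKi libraries of day 14 stood farthest from day 0 in both lists, and those of day 21 were nearer to it. Mitotic genes summed to 2552 to 2702 CPM at FAKi day 14 and to 823 to 878 CPM at FAKi day 21, below the 1463 to 1721 CPM of day 0.

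**Figure D5:**
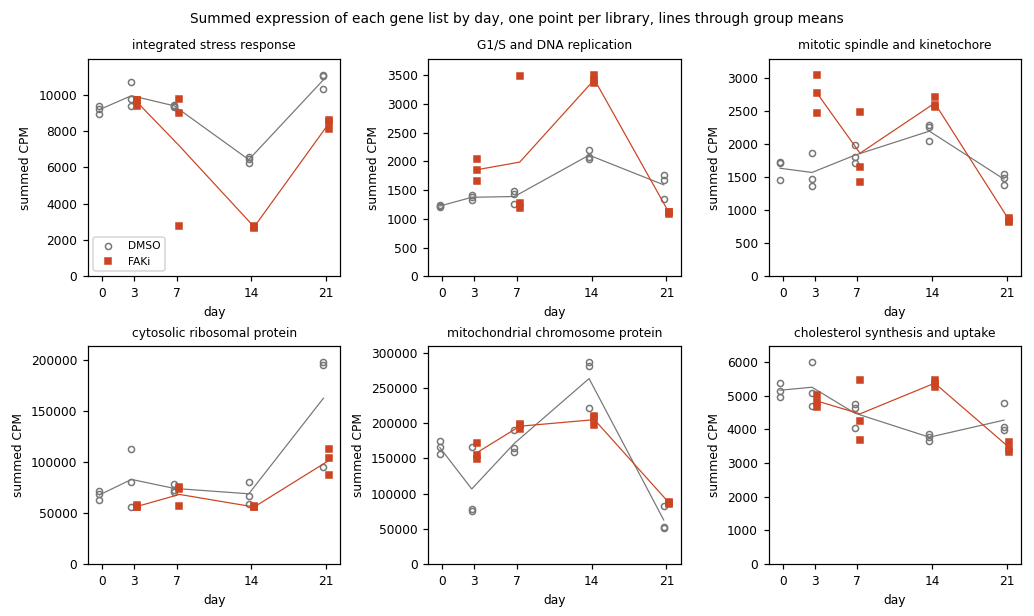
Summed CPM of gene lists in each of the 27 libraries against the day of treatment, in DMSO and FAKi, with lines through group means. At day 14 the FAKi points lie below DMSO for the integrated stress response and above it for DNA replication, and at day 7 a single FAKi library (replicate 1, 2758 and 3492 CPM) lies at the FAKi day 14 level.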

How the data were processed

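RNA of 92.1 cells was sequenced as mRNA libraries, and the authors deposited a table of raw counts per gene for all 27 libraries. Per the file headers and the submitters' processing notes, reads were checked with FastQC 0.11.8, trimmed with Trim Galore, aligned to hg38 with STAR 2.5.3a and counted over exons with HOMER analyzeRepeats, with GENCODE annotation. The strand setting and the treatment of reads with several matches are not given in the sources used here. Every count column matched 1 sample title, although the header for DMSO day 21 replicate 3 can be read as day 7 or day 21.

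Genes with at least 20 counts over the libraries of a fit were tested with edgeR 4.0.16 (R 4.3.3), with TMM scaling, glmQLFit and glmQLFTest. Each comparison of day 21 with day 14 used the 6 libraries of its arm, and the difference between arms was an interaction term over 12 libraries. Genes were called where the Benjamini-Hochberg adjusted p did not exceed 0.05 and the log2 fold change was beyond 1 in either direction. CPM were TMM-scaled within each comparison, except for summed lists, which were scaled over all 27 libraries. Alternatives were other scalings, count filters, DESeq2 1.42.0, thresholds, a replicate block, thinning, and fits without 1 library. Protein-coding genes alone, the length and GC correction and DESeq2 without a fold threshold were added after seeing the data. Transcript lengths for the correction were those in the deposited table.

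The comparison and the gene lists were chosen with earlier results of these data known. By a written rule the text names the 10 called genes with the largest change in each direction at a mean of at least 5 CPM, the 3 with the smallest p in each direction and for the interaction, at most 6 called members per list by p, *PTK2* and *GNAQ*, and any member where a count is 5 or fewer. Other genes were named after their values were seen, among them *ATF4*, *E2F1*, *CCNB1*, *CDC20*, *MITF*, *PLXNC1*, *SEMA6D*, *GAS5* and members without a call. Some called genes are not reported here by name.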

Additional observations from a re-analysis of the deposited data

Results flagged for a closer look

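Results are listed here where the change from day 14 to day 21 differed between FAKi and DMSO by the interaction test. The difference was called for 1922 genes. Its value on the log2 scale was 2.642 for *ASNS*, 3.378 for *TXNIP* and 3.146 for *SLC7A11*. Among the lists, it was called higher in FAKi for 25 genes of the integrated stress response, and lower for 30 genes of G1/S and DNA replication and for 28 nuclear genes of oxidative phosphorylation. The last of these counts moved most with single libraries.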

How the results depend on the processing

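For FAKi, 4731 genes called became 11286 with DESeq2 and 11354 with edgeR by adjusted p alone, and 2507 with protein-coding genes only. For DMSO, 6314 became 10760, 9813 and 3963. For the interaction, 1922 became 4615 and 3294 by adjusted p alone and 962 at an adjusted p of at most 0.01. Leaving out 1 library gave 4009 to 4877 calls for FAKi, 4844 to 7595 for DMSO and 1138 to 3812 for the interaction. The cause of these shifts beyond the changed threshold or gene set was not tested. The mitochondrial share moved by less than the spread between replicates in each such fit. Same-numbered libraries did not deviate together (correlations -0.00819, -0.00665 and 0.00456 in FAKi, and 0.124, -0.0897 and 0.0274 in DMSO), so the numbers were not read as pairs, and a replicate block gave 4570, 6109 and 2090 calls. Of 4608 alternative values of named genes in FAKi, 4381 kept their side of the threshold, 213 lost a call and 6 gained one. Among called genes 0 values reversed. Among genes without a call 8 values changed sign, 7 of *PTK2* and 1 of *GNAQ*. Of all settings, the correction for length and GC content ended the largest number of calls, those of 51 of 186 named genes.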
